A study of Rattus norvegicus with 14 samples.

Results

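Expression of the neuronal nicotinic acetylcholine receptor subunits was followed over 1 day in pineal glands and retinas of rats. The 8 genes Chrna3, Chrna4, Chrna5, Chrna6, Chrna7, Chrnb2, Chrnb3 and Chrnb4 were chosen by symbol from the 16472 genes of the expression table, and each was represented by 1 transcript. Levels were given as FPKM, fragment numbers scaled for transcript length and for the size of the library, so levels of different genes could be set beside each other per length. Pineal glands and retinas came from Sprague-Dawley rats of 6 to 8 weeks of age housed under a cycle of 14 h light and 10 h dark, with no other treatment named. Both tissues were sampled at zeitgeber times (ZT, hours after lights on) 1, 7 and 13 in the light and 15, 19 and 23 in the dark, as 1 library per tissue and time from a pool of 10 animals. Mixed non-pineal tissue, an equal blend of RNA from 15 tissues of 3 rats that included retina, brain regions, spinal cord, adrenal gland and skeletal muscle, was collected at ZT7 and at ZT19. The libraries of all 3 kinds numbered 14.

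Nicotinic receptors are pentameric cation channels that open when acetylcholine binds at the face between an alpha subunit and a neighbouring subunit. Chrna3 and Chrnb4 encode the subunits of the main receptor of autonomic ganglia, which is also abundant in the medial habenula, a brain nucleus close to the pineal stalk. Chrna4 and Chrnb2 form the commonest receptor of the brain, Chrna6 and Chrnb3 contribute to receptors of retinal ganglion cells and dopamine neurons, Chrna7 forms channels on its own, and Chrna5 is an accessory subunit that needs others to make a working channel. Rat pinealocytes, the melatonin-making cells of the gland, are driven at night by noradrenaline from sympathetic nerves and are also known to respond to nicotinic agonists.

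Chrna5, Chrna3 and Chrnb4 lay side by side on chromosome 8. In the coordinates of the deposited table (rn4), Chrna5 (gene ID 25102) spanned 58538002 to 58566388, Chrna3 (gene ID 25101) 58570223 to 58583594 and Chrnb4 (gene ID 25103) 58586961 to 58605545. The gaps between them were 3834 and 3366 bases. Chrna6 (gene ID 81721, 69012201 to 69018901) and Chrnb3 (gene ID 171131, 69028625 to 69069274) formed a pair on chromosome 16, 9723 bases apart. Chrnb2 (gene ID 54239) was on chromosome 2 from 181961373 to 181969581, Chrna4 (gene ID 25590) on chromosome 3 from 170171214 to 170185997, and Chrna7 (gene ID 25302) on chromosome 1 from 117587580 to 117716267.

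The promoter sequences of the chromosome 8 trio are shown because 2 of these 3 neighbours were far higher in the pineal gland than in the retina and the third was not. Each run holds the 250 bases before the RefSeq start site in the GRCr8 assembly, 5′ to 3′ on the gene's own strand, at chr8:64333110-64333359 (minus strand) for Chrnb4, chr8:64311252-64311501 (minus strand) for Chrna3 and chr8:64265629-64265878 (plus strand) for Chrna5. Capitals mark the motifs found.
Chrnb4: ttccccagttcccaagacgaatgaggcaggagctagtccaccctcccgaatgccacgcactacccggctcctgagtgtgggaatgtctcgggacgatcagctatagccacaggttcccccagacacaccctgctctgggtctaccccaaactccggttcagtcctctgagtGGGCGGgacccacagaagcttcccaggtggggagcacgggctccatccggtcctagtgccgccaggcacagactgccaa
Chrna3: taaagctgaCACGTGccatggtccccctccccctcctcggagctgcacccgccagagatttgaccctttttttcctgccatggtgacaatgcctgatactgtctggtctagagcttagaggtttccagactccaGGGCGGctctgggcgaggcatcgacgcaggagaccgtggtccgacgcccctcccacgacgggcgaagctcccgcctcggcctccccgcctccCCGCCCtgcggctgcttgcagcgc
Chrna5: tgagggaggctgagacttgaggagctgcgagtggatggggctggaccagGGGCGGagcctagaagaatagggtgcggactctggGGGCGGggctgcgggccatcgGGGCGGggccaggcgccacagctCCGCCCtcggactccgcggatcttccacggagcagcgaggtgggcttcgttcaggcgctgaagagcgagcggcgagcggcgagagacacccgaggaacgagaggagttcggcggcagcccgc

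Promoter entries were matched for 6 of the 8 members (not for Chrna6 and Chrnb3) and searched on both strands for 5 motifs. The GC box GGGCGG was present in 6 of these 6, against 30.5% of all 33469 promoters of the same length. Chrnb4 held 1 copy, between 79 and 74 bases before its start, Chrna3 held 2, and Chrna5 held 4. The E-box CACGTG, a class of site bound by clock proteins among others, was in the promoters of Chrna3 and Chrna7, against 5.59% of all promoters. In Chrna3 it lay 241 to 236 bases before the start, at the far end of the printed run. The cAMP response element TGACGTCA (1.59% of all promoters), its core TGACG, which lies within it (18.2%), and the Crx and Otx core TAATCC (6.34%) matched in 0 of the 6 windows. The GC content of the windows was 62% for Chrnb4, 65.2% for Chrna3 and 70.4% for Chrna5, against a median of 51.2% over all promoters. Over the 6 windows it ran from 59.6% (Chrnb2) to 74.4% (Chrna4). The shares of all promoters were not matched for GC content, so the GC box count is not shown to be a trait of these genes. A match of letters is a description of these windows and says nothing about binding.

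Summed FPKM per library lay between 152300 and 212600, and 8852 to 11399 genes reached 1 FPKM. Read counts were not used here, so exact depth was unknown. From the lowest values of olfactory receptor transcripts, 1 fragment in a transcript of 1 kb was roughly worth 0.0216 FPKM in the deepest library (retina, ZT23) and 0.0534 FPKM in the shallowest (pineal gland, ZT19). Some genes that every cell uses, such as Hspa8, were also listed at or near 0 (0 to 0.162 FPKM), so a 0 is given here only as listed. Pinealocyte markers summed to 4428 to 5133 FPKM in the pineal libraries, with 6 of 6 listed genes at or above 1 FPKM, and 4 rod markers summed to 4495 to 5999 FPKM in the retina libraries, so both labels matched their tissue.

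Chrnb4 was the leading nicotinic subunit of the pineal gland. Its level was 151.5 FPKM at ZT1, 194.3 at ZT7, 200.2 at ZT13, 213.2 at ZT15, 118.2 at ZT19 and 105.1 at ZT23. In the retina it was 2.75, 2.55, 2.66, 2.62, 2.01 and 2.55 FPKM at the same times, and in mixed tissue 0.715 at ZT7 and 0.494 at ZT19. The lowest pineal library was therefore far above the highest of any other tissue, and by mean FPKM Chrnb4 ranked 108th of 16472 genes in the pineal gland, 7980th in the retina and 11924th in mixed tissue. The pineal mean of 163.7 ± 45.6 FPKM (SD, n = 6 libraries) was 64.9 times the retina mean of 2.52 ± 0.262 (SD, n = 6) and 270.8 times the mixed mean of 0.604 ± 0.157 (SD, n = 2).

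Chrna3, the alpha partner of Chrnb4 in ganglia, was the runner-up of the gland. It stood at 32.0, 26.3, 40.4, 58.1, 39.0 and 31.8 FPKM in the pineal gland from ZT1 to ZT23. The retina values were 2.01, 3.31, 1.76, 1.91, 2.21 and 2.97 FPKM, and the mixed values 1.13 and 0.960. All 6 pineal libraries were above all other libraries, with means of 37.9 ± 11.2 FPKM in the pineal gland (SD, n = 6), 2.36 ± 0.633 in the retina (SD, n = 6) and 1.05 ± 0.124 in mixed tissue (SD, n = 2). The pineal mean was 16.1 times that of the retina and 36.2 times that of mixed tissue, and its pineal rank was 873rd of 16472.

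Chrna5, the accessory subunit encoded beside them, did not share this enrichment. It was listed at 0.165, 0.158, 0.154, 0.212, 0.0400 and 0.166 FPKM in the pineal gland and at 0.792, 0.392, 0.329, 0.556, 0.467 and 0.513 FPKM in the retina, from ZT1 to ZT23. Mixed tissue gave 0.614 and 0.575. Every pineal value was below every retina and mixed value. Because no library reached 1 FPKM, Chrna5 was not among the genes tested across the transcriptome. An exact two-sided permutation test of the FPKM difference between pineal gland and retina (-0.359) gave p = 0.002165, the smallest value that 6 against 6 libraries allow. This p follows from the separation just given and adds nothing to it. The test took libraries of different times as replicates and did not match them by time.

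Chrnb2, the common beta subunit of brain receptors, was present in both tissues over overlapping ranges. It was at 10.2, 8.80, 10.3, 11.6, 10.7 and 11.2 FPKM in the pineal gland, at 10.2, 15.7, 13.6, 11.7, 11.4 and 11.3 FPKM in the retina, and at 8.60 and 7.16 FPKM in mixed tissue. The pineal and retina ranges overlapped, with means of 10.4 ± 0.976 and 12.3 ± 1.99 FPKM (SD, n = 6 each), and mixed tissue averaged 7.88 ± 1.02 FPKM (SD, n = 2).

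Its usual partner Chrna4 was nearly unlisted in the gland. Chrna4 read 0.0140, 0.0417, 0.0574, 0.124, 0.0219 and 0.134 FPKM in the pineal libraries, which is near the worth of single fragments. The retina gave 7.44, 7.20, 7.31, 7.83, 6.38 and 6.49 FPKM and mixed tissue 6.12 and 4.91. The retina mean of 7.11 ± 0.567 FPKM (SD, n = 6) was 108.5 times the pineal mean of 0.0655 ± 0.0516 (SD, n = 6), and mixed tissue averaged 5.51 ± 0.852 (SD, n = 2). Chrnb2 in the gland was thus listed without the Chrna4 level that accompanied it in the other tissues. The Chrna4 level was 0.00607 ± 0.00440 of Chrnb2 in the pineal gland (SD, n = 6), 0.588 ± 0.0966 in the retina (SD, n = 6) and 0.698 ± 0.0180 in mixed tissue (SD, n = 2).

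Chrna6 was the leading subunit of the retina and was listed at 0 in 6 of 6 pineal libraries. Retina values were 21.6, 23.8, 20.1, 21.6, 19.9 and 21.2 FPKM from ZT1 to ZT23, and mixed tissue gave 3.47 and 3.25. Its chromosomal neighbour Chrnb3 stood at 14.8, 14.4, 15.3, 15.5, 16.4 and 15.0 FPKM in the retina, at 1.93 and 1.81 in mixed tissue, and at 0.182, 0.408, 0.629, 0.126, 0.145 and 0.177 in the pineal gland. Both were therefore highest in the retina, with means there of 21.4 ± 1.38 and 15.3 ± 0.695 FPKM (SD, n = 6), and Chrnb3 was 54.9 times higher in the retina than its pineal mean of 0.278 ± 0.200 (SD, n = 6). No fold is given for Chrna6 against a group listed at 0.

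Chrna7, the subunit of homomeric receptors, was low everywhere and highest in mixed tissue. It was at 2.003 and 1.681 FPKM there, at 0.901, 1.21, 1.34, 1.42, 1.45 and 1.17 FPKM in the retina, and at 0.0230, 0, 0.0472, 0.0238, 0.107 and 0.0622 FPKM in the pineal gland. The 3 ranges did not overlap, with means of 1.84 ± 0.228 (SD, n = 2), 1.25 ± 0.204 (SD, n = 6) and 0.0439 ± 0.0377 FPKM (SD, n = 6).

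**Figure D1:**
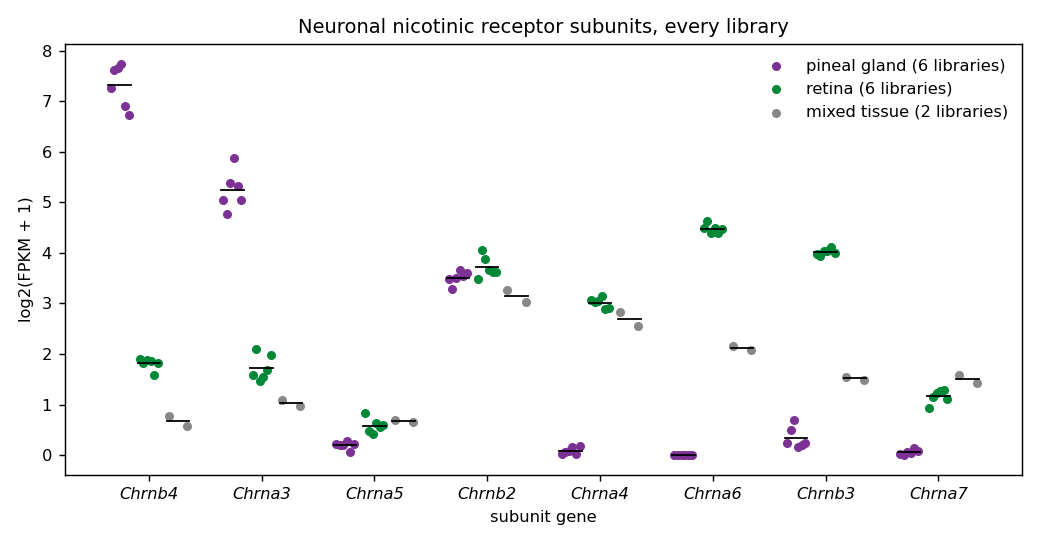
Level of the 8 subunits in every library as log2(FPKM + 1), with 1 point per library (pineal gland purple, retina green, mixed tissue grey) and a black bar at the mean of each group. Chrnb4 and Chrna3 sit far higher in the pineal gland than elsewhere, the pineal and retina points of Chrnb2 overlap, and Chrna4, Chrna6, Chrnb3 and Chrna7 lie at or near 0 in the pineal gland.

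Ordered by level within a tissue, the pineal gland had Chrnb4, Chrna3 and Chrnb2 on top with no overlap between their ranges, then Chrnb3, Chrna5, Chrna4 and Chrna7, all under 1 FPKM and each overlapping the next, and Chrna6 at 0. The order in the retina was Chrna6, Chrnb3, Chrnb2, Chrna4, Chrnb4, Chrna3, Chrna7 and Chrna5, where Chrnb3 overlapped Chrnb2 and Chrnb4 overlapped Chrna3. In mixed tissue it was Chrnb2, Chrna4, Chrna6, Chrnb3, Chrna7, Chrna3, Chrnb4 and Chrna5, where Chrnb3 overlapped Chrna7 and Chrnb4 overlapped Chrna5. The 8 genes together summed to 212.7 ± 51.5 FPKM in the pineal gland (SD, n = 6), 62.7 ± 3.08 in the retina (SD, n = 6) and 22.7 ± 2.65 in mixed tissue (SD, n = 2). Chrnb4 made up 76.4% ± 5.46 of that sum in the pineal gland, between 70.3% and 84.5%, with Chrna3 at 18.2% ± 4.33 and Chrnb2 at 5.19% ± 1.49 (SD, n = 6). The retina sum was spread more evenly: Chrna6 took 34.1% ± 1.25, Chrnb3 24.4% ± 1.98, Chrnb2 19.6% ± 2.29 and Chrna4 11.4% ± 0.886 (SD, n = 6).

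The tissues were then compared with limma on log2(FPKM + 1), a scale that understates the change of low genes, with the libraries of a tissue at different times serving as its replicates. Of the 8 members, 7 reached 1 FPKM in 2 or more libraries and were tested. Chrna4, Chrna6, Chrna7 and Chrnb3 did so only through retina or mixed libraries, so their lower pineal level was partly built into their being tested. In bulk tissue, fewer cells of a type and less RNA per cell cannot be told apart.

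Between pineal gland and retina, Chrnb4 was higher in the gland by 5.50 (SE 0.158, adjusted p = 1.29e-13) and Chrna3 by 3.51 (SE 0.166, adjusted p = 4.58e-11). These were 2 of 7 tested members, against 36.9% of all 11656 tested genes that were higher in the pineal gland. Chrna4 differed by -2.93 (SE 0.0726, adjusted p = 2.56e-14), Chrnb3 by -3.68 (SE 0.0930, adjusted p = 3.15e-14) and Chrna7 by -1.10 (SE 0.0635, adjusted p = 4.93e-10), and Chrna6 also passed (adjusted p = 1.00e-16). These 4 lower members of 7 stood against 32% of all genes, a count partly built in because they were tested only through retina or mixed libraries. Chrnb2 differed by -0.21 (SE 0.0983, adjusted p = 0.0691) and was not called, but it passed with quantile normalization (-0.29, adjusted p = 0.00682), with median ratio scaling (-0.28, adjusted p = 0.00795) and without the retina library at ZT1 (-0.26, adjusted p = 0.0317). Over its 23 alternatives the adjusted p ranged from 0.00682 to 0.183. Without the filter, Chrna5 was lower in the gland by -0.39 (SE 0.0615, adjusted p = 7.73e-05 over 14309 genes).

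Against mixed tissue, the pineal gland was higher in Chrnb4 by 6.64 (SE 0.223, adjusted p = 4.73e-13) and in Chrna3 by 4.21 (SE 0.235, adjusted p = 2.45e-10), where the median of all tested genes was -0.25. Chrnb2 was higher by 0.37 (SE 0.139, adjusted p = 0.0309), a call that was lost with only the libraries at ZT7 and ZT19 (0.27, adjusted p = 0.355), without the mixed library at ZT19 (0.25, adjusted p = 0.285) and without the pineal library at ZT15 (0.34, adjusted p = 0.0525). These 3 of 7 higher members stood against 19.8% of all genes. Chrna4 at -2.61 (adjusted p = 3.37e-12), Chrna7 at -1.44 (adjusted p = 9.61e-10), Chrnb3 at -1.18 (adjusted p = 1.05e-06) and Chrna6 (adjusted p = 7.30e-12) were lower, as were 45% of all genes. For these lower members this was again partly built into their being tested. With quantile normalization the difference of Chrnb3 was 0.01 (adjusted p = 0.936). Without the filter, Chrna5 was lower in the gland than in mixed tissue by -0.47 (adjusted p = 0.000267).

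Against mixed tissue the retina was higher in 6 of 7 members, against 18.4% of all genes. The differences were largest for Chrnb3 at 2.50 (SE 0.132, adjusted p = 1.65e-10) and Chrna6 at 2.36 (SE 0.0889, adjusted p = 2.40e-12), where the median of all tested genes was -0.30. Chrnb4 differed by 1.13 (adjusted p = 0.000373), Chrna3 by 0.70 (adjusted p = 0.0169), Chrnb2 by 0.58 (adjusted p = 0.00194) and Chrna4 by 0.32 (adjusted p = 0.0130). Without the mixed library at ZT19 only 3 of these remained called (Chrna6, Chrnb3 and Chrnb4), and without the one at ZT7 Chrna3 had an adjusted p of 0.0612. The Chrna4 call was also lost with a pseudocount of 0.1 FPKM (adjusted p = 0.230) and with only the libraries at ZT7 and ZT19 (adjusted p = 0.285). Chrna7 was lower in the retina by -0.34 (SE 0.0898, adjusted p = 0.00374), 1 of 7 against 46.6% of all genes, and this direction turned to 0.67 (adjusted p = 1.56e-05) with quantile normalization. The blend contained retina, and 4 rod markers stood in it at 10.1% to 10.9% of their retina level. By the same ratio of means Chrnb3 stood at 12.3%, Chrna6 at 15.7%, Chrnb4 at 24.0%, Chrna3 at 44.4%, Chrnb2 at 63.9%, Chrna4 at 77.5% and Chrna7 at 147.5%.

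Over the day, Chrnb4 was the 1 tested member whose pineal 24-h rhythm passed the threshold. It was lowest late in the dark, at 118.2 FPKM at ZT19 and 105.1 at ZT23, intermediate at ZT1 and highest from ZT7 to ZT15, a range of 2.03 times between the highest and the lowest library. A fitted 24-h cosine peaked at ZT10.1, between the libraries of ZT7 and ZT13, with a peak to trough of 0.996 on the log2 scale (adjusted p = 0.0129). Over 20 alternatives the adjusted p of Chrnb4 ranged from 0.00324 to 0.0794, and the call was lost without the pineal library at ZT23 (0.85, adjusted p = 0.0794) and when the pineal gland was fitted alone (adjusted p = 0.0758). The peak to trough ranged from 0.824 with median ratio scaling to 1.301 without the pineal library at ZT7. With 1 library per time, the error of these fits is what the model left over in the 12 libraries of both tissues, that is, differences between pools together with misfit of the cosine.

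Chrna3 had 1 high library at ZT15 (58.1 FPKM), just after lights off, and its lowest at ZT7 (26.3 FPKM). Chrnb4 was also highest at ZT15 (213.2 FPKM), and the time courses of these genes were not tested against each other. The Chrna3 cosine had a peak to trough of 0.90 and a peak at ZT16.2 (adjusted p = 0.0518), which missed the threshold. Over 20 alternatives its adjusted p ranged from 0.0223 to 0.173. It passed with median ratio scaling (adjusted p = 0.0342) and without the pineal library at ZT1 (adjusted p = 0.0495) or at ZT19 (adjusted p = 0.0386) or the retina library at ZT1 (adjusted p = 0.0308) or at ZT7 (adjusted p = 0.0403), while without its high library at ZT15 the peak to trough was 0.64 (adjusted p = 0.173). That pineal library also had the highest level of choroid plexus markers: the 4 listed genes summed to 3607 FPKM at ZT15 and to 673.3 to 1163 FPKM in the other 5 pineal libraries, all 4 being highest at ZT15, beside 50.2 to 90.9 FPKM in the retina and 775.6 and 779.7 in mixed tissue. Their part in the Chrna3 value was not tested.

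The remaining members had smaller or barely listed pineal profiles. Chrnb3, under 1 FPKM throughout, had a peak to trough of 0.44 (adjusted p = 0.176), Chrnb2 of 0.32 (adjusted p = 0.275), Chrna7 of 0.13 (adjusted p = 0.780) and Chrna4 of 0.06 (adjusted p = 0.960). Chrna6 was listed at 0 in every pineal library. Of the 7 members tested, 1 was thus rhythmic in the pineal gland, against 20.7% of all 10416 genes tested. Chrna4, Chrna6, Chrna7 and Chrnb3 were under 1 FPKM in every pineal library and were tested only through retina libraries. On this scale they could hardly show a pineal rhythm, so no conclusion is drawn from the count. The ratio of Chrnb4 to Chrna3 within a pineal library was 4.74 at ZT1, 7.38 at ZT7, 4.95 at ZT13, 3.67 at ZT15, 3.03 at ZT19 and 3.30 at ZT23. Chrnb4 exceeded Chrna3 in every pineal library, by the widest margin at mid-day and the narrowest in the dark. In the retina the ratio lay between 0.768 and 1.51 and in mixed tissue at 0.630 and 0.514.

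**Figure D2:**
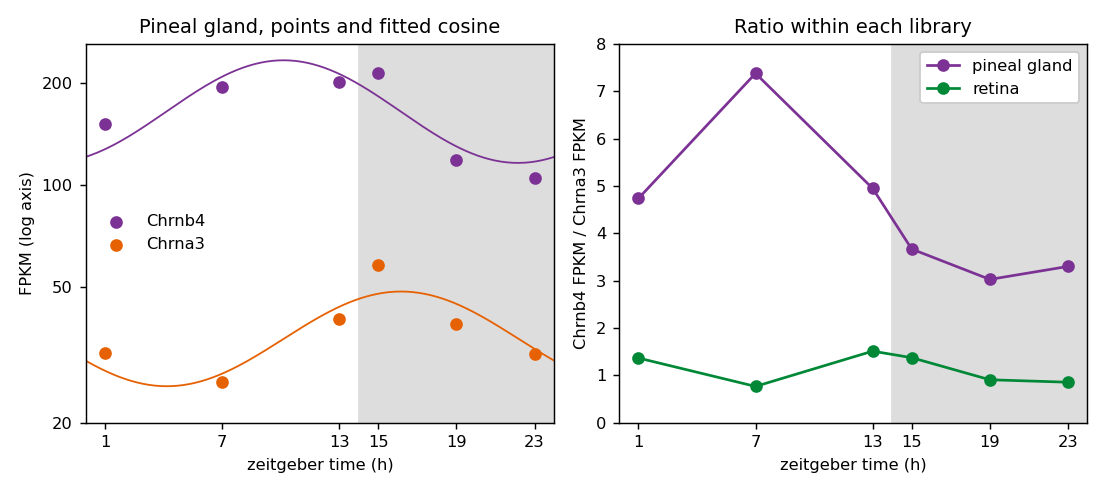
Left, FPKM of Chrnb4 and Chrna3 in the 6 pineal libraries (points, log axis) with the fitted 24-h cosine (lines) against zeitgeber time in hours, the grey area being the dark phase; right, the ratio of Chrnb4 to Chrna3 FPKM within each library of the pineal gland and the retina. Chrnb4 is lowest at ZT19 and ZT23, Chrna3 highest at ZT15, and the pineal ratio is highest at ZT7 (7.38) and lowest at ZT19 (3.03).

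When late dark (ZT19 and ZT23) was compared with light (ZT1, ZT7 and ZT13), Chrnb4 fell by 0.69 in the pineal gland on the log2 scale (SE 0.139, adjusted p = 0.0154), from 182.0 ± 26.6 FPKM (SD, n = 3) to 111.6 ± 9.24 FPKM (SD, n = 2) with no overlap of the libraries. The median of all tested genes was -0.12. It was 1 of 7 members, which include those under 1 FPKM throughout the gland, against 7.28% of all genes changed in either direction. The direction was the same in all 21 alternatives, but the adjusted p ranged from 0.00193 to 0.509, and the call was lost without the pineal library at ZT7 (0.0672), ZT13 (0.0510), ZT19 (0.0641) or ZT23 (0.0688), with the gland fitted alone (0.10) and with ZT15 counted as late dark (-0.38, adjusted p = 0.509). Chrna3 averaged 32.9 ± 7.10 FPKM in the light (SD, n = 3) and 35.4 ± 5.09 in late dark (SD, n = 2), a difference of 0.12 (SE 0.218, adjusted p = 0.775).

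Some genes on the marker lists of other cells varied over the same pineal libraries. Retinal ganglion cell markers (9 of 11 in the table) summed to 91.5 to 156.4 FPKM in the pineal gland, 237.6 to 285.0 in the retina and 373.1 and 528.9 in mixed tissue. Among them Isl2 ranged from 21.3 FPKM at ZT23 to 71.2 at ZT15 and was, like Chrnb4, lowest at ZT19 and ZT23, while Slc17a6, also a habenula marker, was highest at those times (122.7 and 81.9 FPKM, against 21.5 to 57.1 in the other 4 libraries) and Pou4f2 was between 0 and 0.0101 FPKM. The sum of the list was highest at ZT19. Isl2 and Slc17a6 were themselves higher in the gland (means of 47.9 and 55.1 FPKM) than in the retina (0.956 and 12.2 FPKM). The other 7 ganglion cell markers in the table were lower in the gland than in the retina. The 4 rod markers summed to 48.5 to 352.9 FPKM in the pineal gland, nearly all of it Sag, which ranged from 46.9 to 350.4 FPKM with its highest value at ZT15, while Gnat1 was at or below 1.60 FPKM. Their part in the Chrnb4 values was not tested. Of the medial habenula list, 7 markers were in the table and summed to 27.3 to 130.3 FPKM in the pineal gland, 34.3 to 41.5 in the retina and 26.2 to 33.1 in mixed tissue. In the pineal gland Nhlh2 was listed at 0 in 6 of 6 libraries, Chat was at or below 0.00995 FPKM, Slc18a3 at or below 0.0154, Gpr151 at or below 0.108 and Tac1 at or below 0.597, while Slc5a7 was at 4.29 to 7.56 and Slc17a6 at 21.5 to 122.7. Sympathetic neuron markers (5 of 6 in the table) summed to 1.70 to 3.30 FPKM in the pineal gland, 5.23 to 6.79 in the retina and 17.5 and 18.0 in mixed tissue. The noradrenaline enzymes Th and Dbh averaged 0.0264 and 0.0154 FPKM in the gland, while the vesicular monoamine transporter Slc18a2 was at 1.41 to 3.20 FPKM, lowest like Chrnb4 at ZT19 and ZT23, with a pineal rhythm that passed (0.75, peak ZT11.6, adjusted p = 0.0218). The late dark change of Slc18a2 in the gland did not pass (-0.39, adjusted p = 0.194). The part of these markers in the Chrnb4 and Chrna3 values was not tested.

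In the retina, no member had a 24-h rhythm that passed (limma, 0 of 7, against 1.02% of all genes). At an unadjusted p under 0.05 there was 1, Chrnb2, with a peak to trough of 0.50 and a fitted peak at ZT8.93 (adjusted p = 0.155). Its highest retina library was ZT7 at 15.7 FPKM and its lowest ZT1 at 10.2. The other 6 tested members had a peak to trough between 0.16 and 0.45, with adjusted p between 0.313 and 0.841. Late dark against light called 0 of 7 in the retina (0 at an unadjusted p under 0.05), where 0.0096% of all genes passed, a single gene. Chrnb4 differed by -0.16 there (SE 0.139, adjusted p = 0.666).

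**Figure D3:**
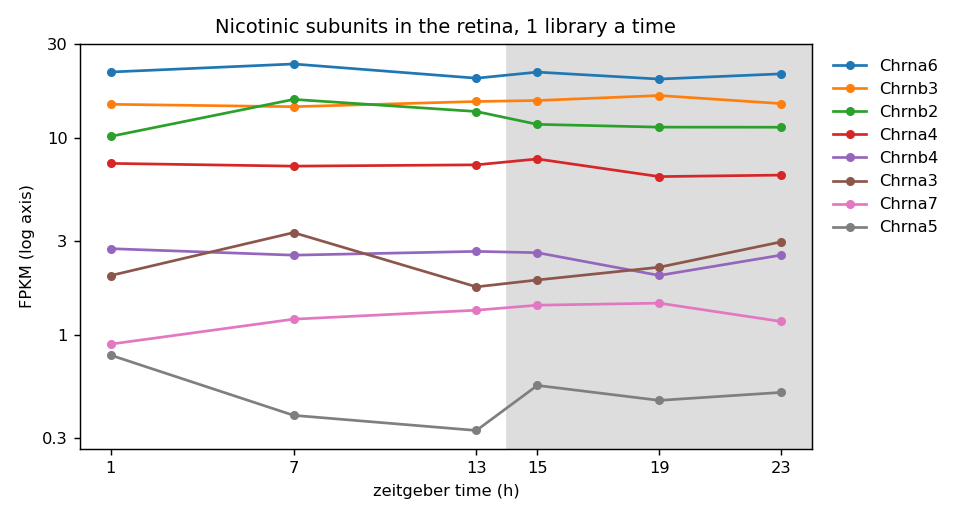
FPKM (log axis) of the 8 subunits in the 6 retina libraries against zeitgeber time in hours, 1 line per gene and 1 library per time, with the dark phase in grey. Chrna6, Chrnb3, Chrnb2 and Chrna4 lie above the others at every time, and no member's rhythm passed the test.

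The test of the difference between tissues was made separately. The rhythms of 0 of 7 members differed between pineal gland and retina after adjustment (4.95% of all genes), with 3 at an unadjusted p under 0.05: Chrna3 (difference of fitted curves 1.34, adjusted p = 0.0920), Chrnb2 (0.79, adjusted p = 0.111) and Chrnb4 (0.89, adjusted p = 0.139). Chrnb4 passed without the pineal library at ZT1 (adjusted p = 0.0387) and Chrna3 without the retina library at ZT1 (adjusted p = 0.0473). The late dark change differed for 0 of 7 (0.71% of all genes), with Chrnb4 at -0.53 (SE 0.196, unadjusted p = 0.0205, adjusted p = 0.312) as the 1 member at an unadjusted p under 0.05. The pineal rhythm and late dark decrease of Chrnb4 were therefore not shown to be particular to the gland.

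The nearest genes did not share the size of the pineal excess of Chrnb4 and Chrna3. On one side Chrna5 was at 0.149 ± 0.0575 FPKM in the pineal gland (SD, n = 6), and beyond it Psma4, a proteasome subunit gene 21898 bases away, stood at 35.9 ± 4.59 FPKM in the pineal gland, 26.1 ± 3.63 in the retina (SD, n = 6 each) and 38.6 ± 0.866 in mixed tissue (SD, n = 2), with Agphd1 at a pineal mean of 0.134. On the other side Fbxo22, a ubiquitin ligase adaptor gene 146038 bases away, had means of 14.7, 12.5 and 13.4 FPKM in the same order and Nrg4 had a pineal mean of 0.0931. The pineal excess over the retina was 0.45 for Psma4 (adjusted p = 0.000911) and 0.23 for Fbxo22 (adjusted p = 0.0401) on the log2 scale, beside 5.50 for Chrnb4. Around the Chrna6 and Chrnb3 pair, Poteg was listed at 0 in all libraries and RGD1562638 in all pineal and retina libraries, and Eif4ebp1, a regulator of translation, had a lower retina mean (1.38 FPKM) than pineal mean (2.28, adjusted p = 0.00365). The neighbours were chosen by position alone.

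**Figure D4:**
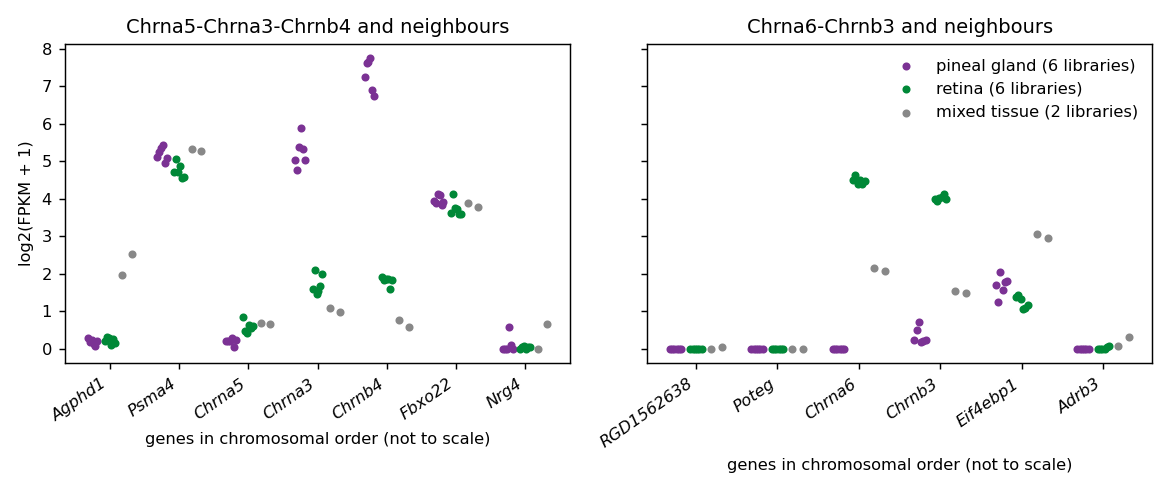
Level as log2(FPKM + 1) in every library (1 point each, pineal gland purple, retina green, mixed tissue grey) of the 2 gene groups and the 2 nearest genes on each side, in chromosomal order and not to scale. On the left the pineal points of Chrna3 and Chrnb4 stand far above their retina points, and on the right the retina points of Chrna6 and Chrnb3 stand above those of their neighbours.

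Among all 10415 other genes of the time series, those whose log2 profile over the 12 pineal and retina libraries was most like that of Chrnb4 were Car3 (Pearson r 0.998), Map4k1 (0.998), Anpep (0.998), Gch1 (0.998) and Col8a1 (0.997). Gch1 encodes the first enzyme of tetrahydrobiopterin synthesis, Car3 a carbonic anhydrase and Anpep an aminopeptidase. Their pineal means were 63.8, 11.4, 10.4, 103.8 and 143.1 FPKM in that order. These correlations describe the step between the tissues, which all 12 points share. Chrna3 ranked 308th with r 0.985, and over the 6 pineal libraries alone its r with Chrnb4 was 0.342.

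The other nicotinic subunits, which include those of muscle and of the hair cell receptor, were nearly unlisted in the gland apart from Chrnb1. Of 8 in the table, Chrna1, Chrnd and Chrng were at 0 in every pineal library, and only Chrnb1 and Chrna2 were tested. Chrnb1, the beta subunit of muscle receptors, had means of 2.19, 1.57 and 1.27 FPKM in pineal gland, retina and mixed tissue. It was rhythmic in the pineal gland (peak to trough 0.80, fitted peak ZT21.4, adjusted p = 0.0408) and rose in late dark by 0.62 (SE 0.137, adjusted p = 0.0234), from 1.97, 1.52 and 1.54 FPKM at ZT1, ZT7 and ZT13 to 2.69 and 3.54 at ZT19 and ZT23. This was opposite in direction to Chrnb4 over the same libraries. Skeletal muscle markers summed to at most 0.631 FPKM in the pineal gland and to 2602 and 3369 in mixed tissue. Chrna2 averaged 3.54 FPKM in the retina and 0.00610 in the gland (difference -2.17, adjusted p = 1.15e-14), and was tested only because it reached 1 FPKM in retina libraries.

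Assembly and accessory proteins were tested for 9 of the 11 genes in the table. Between gland and retina 2 were higher and 5 lower (median -0.51, against 0.03 over all genes), where 36.9% and 32% of all genes were called. Between gland and mixed tissue 2 were higher and 7 lower (median -1.70, against -0.25 over all genes), where 19.8% and 45% were called. Lynx1, Ly6h and Lypd6b were under 1 FPKM in every pineal library and were tested only through retina or mixed libraries, so their lower pineal level was partly built in. Tmem35, the chaperone also called NACHO, was at 50.6, 60.4, 63.8, 67.5, 47.5 and 48.7 FPKM in the pineal gland from ZT1 to ZT23, with means of 18.7 in the retina and 14.7 in mixed tissue (pineal minus retina 1.53, SE 0.101, adjusted p = 2.36e-09). Like Chrnb4 it was lowest at ZT19 and ZT23, and its pineal rhythm had a peak to trough of 0.49 and a peak at ZT10.8 (adjusted p = 0.0416). Its late dark change in the gland did not pass (-0.27, adjusted p = 0.243), nor did its difference in rhythm from the retina (adjusted p = 0.122). A peak in the light was common, being found in 1472 of the 2160 genes rhythmic in the pineal gland. Ric3, another receptor chaperone, averaged 9.73, 8.66 and 4.65 FPKM in pineal gland, retina and mixed tissue. Of the Ly6 family proteins on the list, Lynx1 averaged 0.512 FPKM in the gland, 15.7 in the retina and 35.9 in mixed tissue (pineal minus retina -3.48, adjusted p = 8.95e-13). Ly6h averaged 0.134, 7.75 and 16.8 FPKM (-2.94, adjusted p = 1.60e-12) and Lypd1 averaged 1.58, 14.4 and 8.31 FPKM (-2.59, adjusted p = 6.00e-11), while Ly6e was higher in the gland than in the retina (41.2 and 22.7 FPKM, 0.82, adjusted p = 1.59e-05).

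In the pineal gland 3 of the 8 genes of this list in the time series were rhythmic: Tmem35, Vsnl1 (0.78, peak ZT11.8, adjusted p = 0.00744) and Nptxr, against 20.7% of all genes. Nptxr is a neuronal pentraxin receptor whose link to nicotinic receptors was not tested. It was at 21.6 FPKM at ZT1, 5.06 at ZT7, 3.23 at ZT13, 2.05 at ZT15, 8.13 at ZT19 and 28.4 at ZT23 (peak to trough 3.06, adjusted p = 0.000191). Its lowest and highest libraries, ZT15 and ZT23, were the highest and lowest of Chrnb4, but these genes were not tested against each other. The late dark change of Nptxr in the gland did not pass (0.98, SE 0.607, adjusted p = 0.333). In the retina it stayed between 9.65 and 11.8 FPKM, and the difference in rhythm passed (adjusted p = 0.00667).

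Of the genes that make, transport and break down acetylcholine, Chat and Slc18a3 were at or near 0 in the gland and Slc5a7 was not. Of 6 in the table, 5 were tested, and 3 were lower and 1 higher in the pineal gland than in the retina (median -1.92), against 32% and 36.9% of all genes. The lower ones, Chat, Slc18a3 and Prima1, were under 1 FPKM in every pineal library and were tested only through retina or mixed libraries. Chat, which makes acetylcholine, averaged 0.00166 FPKM in the gland and 4.97 in the retina (-2.57, adjusted p = 1.38e-14), and Slc18a3, which loads it into vesicles, 0.00637 and 3.26 (-2.08, adjusted p = 8.00e-12). Slc5a7, the choline transporter of cholinergic neurons, was higher in the gland, at 4.29, 5.22, 5.66, 6.49, 7.56 and 5.74 FPKM from ZT1 to ZT23 against 2.29 to 3.18 in the retina (0.87, adjusted p = 4.55e-06). Muscarinic receptors, the G protein-coupled receptors for acetylcholine, were lower in the pineal gland than in the retina for 4 of 4 tested (32% of all genes), which also reached 1 FPKM in no pineal library, and Chrm3 averaged 0.489 and 3.41 FPKM (-1.58, adjusted p = 1.74e-09).

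**Figure D5:**
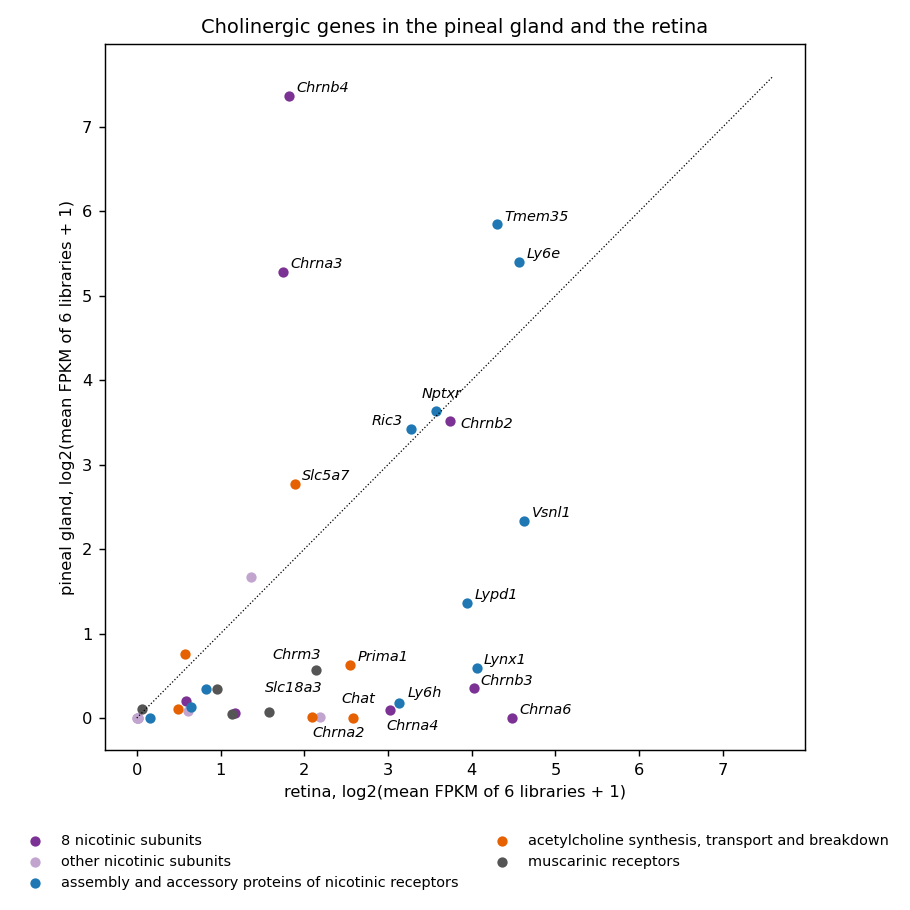
Mean level of the 8 subunits and 4 related gene lists in the retina (x axis) and the pineal gland (y axis), each as log2 of the mean FPKM of 6 libraries plus 1, with 1 point per gene and a dotted line of equal levels. Chrnb4 and Chrna3 lie farthest above the line, Tmem35 and Slc5a7 also lie above it, and Chrna6, Chrnb3, Chrna4, Chat and Lynx1 lie well below.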

How the data were processed

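Poly(A) RNA libraries of 14 pools were read as 101-base paired ends, per the labels' protocols. The authors deposited 1 FPKM value per RefSeq transcript and library. TopHat 1.3.1, Cufflinks 1.2.0 and rn4 are named in the submitters' processing notes with no role, and strandedness is not given in the sources used here. These values are relative within a library, so very abundant transcripts lower all others.

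FPKM of the 16932 transcripts was summed per gene ID. Groups were taken from the labels. The tests used limma 3.58.1 (R 4.3.3, trended empirical Bayes, two-sided) on log2(FPKM + 1) of genes that reached 1 FPKM in 2 or more libraries (Benjamini-Hochberg over all genes tested, threshold 0.05). The time series fit used 12 libraries (10416 genes, 6 residual degrees of freedom, a 24-h cosine and sine per tissue, or phase means with ZT15 apart). The tissue fit used 14 (11656 genes, 11 residual degrees of freedom). Labels do not say whether pools of a tissue were otherwise independent, so p-values measure the spread between these libraries. The test was tried on simulated data with the same spread for every gene and a true cosine or tissue shift. Real data need not follow these settings, so the outcome is not used here. Start positions in the table count from 0, so 1 was added.

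Alternatives were other pseudocounts, filters, scalings, models and libraries left out. The members, gene lists and markers were chosen with earlier results of these data known. All members are named. Related lists name up to 4 genes of highest median FPKM, plus any discussed that passed a test. Neighbours were the nearest 2 genes per side, and like genes the 5 with highest Pearson r to the leading pineal member. Protein sequences were not used here, and 1 listed marker is not reported here.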

Additional observations from a re-analysis of the deposited data

Results flagged for a closer look

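In 2 of the 15 groups of 6 libraries checked, 1 library stood apart from the others by a gap, relative to the group's range, above Dixon's critical value, which chance alone passes in about 1 in 20 groups. Chrna5 in the pineal gland was at 0.0400 FPKM at ZT19, below 0.154 to 0.212 FPKM in the other 5 libraries (gap over range 0.661). That library was the shallowest by the estimate from olfactory receptor transcripts. Chrnb4 in the retina was at 2.01 FPKM at ZT19, below 2.55 to 2.75 FPKM in the others (0.728). That library held the highest summed level of lens markers (2 of 4 in the table), 583.6 FPKM against 32.2 to 244.3 in the other retina libraries. Most of that sum was Crygc, at 541.2 FPKM. Their part in these values was not tested.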

How the results depend on the processing

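The pineal against retina calls of Chrna3, Chrna4, Chrna6, Chrna7, Chrnb3 and Chrnb4 held in all 23 alternatives run, including zeitgeber time as a block. For Chrna4, Chrna6, Chrna7 and Chrnb3, which passed the filter only through retina or mixed libraries, this was partly built in. The count of members rhythmic in the pineal gland (1) was 2 with median ratio scaling and, in an alternative chosen after seeing the data, without the pineal library at ZT19 and the retina library at ZT7. It was 0 with the gland fitted alone, where 3 members were tested, and 0 to 2 when single libraries were left out (0 without pineal ZT23). Rhythm differences counted 0 to 1 with single libraries left out. The late dark count in the gland (1) was 0 with the gland fitted alone, with ZT15 counted as late dark and without that same pair, and 0 to 1 with single libraries left out. The late dark difference of Chrna3 in the gland, 0.12, ranged from -0.0287 (without pineal ZT7) to 0.272 (without pineal ZT13) with single libraries left out, was also below 0 without pineal ZT19, and was -0.0262 without that same pair. Members higher in the retina than in mixed tissue (6) ranged from 3 to 6 with single libraries left out. The 1 lower member, Chrna7, was 0 with a pseudocount of 0.1 FPKM, quantile normalization, median ratio scaling and only ZT7 and ZT19 libraries, and 0 to 1 with single libraries left out (0 without mixed ZT7). With quantile normalization Chrna7 became 0.67 there, and Chrnb3 became 0.0129 between gland and mixed tissue. The cause was not tested. No paired analysis was possible because the labels number no replicates and name no shared animals, so the block above matches libraries by time of day alone. Depth limits Chrna4, Chrna5, Chrna7 and Chrnb3 in the gland, where all were under 1 FPKM. Mean levels of Chrna4 and Chrna7 lay nearest to the worth of single fragments, while Chrna5 reached 0.212 FPKM and Chrnb3 0.629 FPKM.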
